A study of Mus musculus with 4 samples.

Results

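The genes examined were those of the period and cryptochrome proteins (Per1, Per2, Per3, Cry1 and Cry2), of the casein kinases 1δ and 1ε (Csnk1d and Csnk1e) and of the ubiquitin ligase subunit β-TrCP (Btrc). They were selected by gene symbol, and all 8 were found among the 15500 genes of the deposited liver RNA-seq table. The table holds 4 libraries, with 1 per condition. Male Kunming mice, an outbred stock, were 5 weeks old when purchased and were kept on chow for 1 week before the diets. The Vehicle library came from mice on chow with 1.5% (w/w) linoleic acid, and the CLA library from mice on chow with 1.5% conjugated linoleic acid, an equal mixture of the c9t11 and t10c12 isomers. The GW6471 library came from mice on the linoleic acid diet with a daily intraperitoneal injection of 20 mg/kg GW6471, a PPARα antagonist, and the CLA+GW6471 library from mice that received both the CLA diet and these injections. Each group had 6 mice, the CLA diets lasted 28 days, and the labels state vehicle injections only as given where appropriate. The age, sex and sampling at zeitgeber time 8, during the light phase, are stated in the methods for the Vehicle and CLA groups. Pooling of RNA across mice is not described, so the spread between mice is unknown and no difference between conditions was tested.

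In the mammalian clock, CLOCK and BMAL1 activate the Per and Cry genes through E-boxes, and the PER and CRY proteins return to the nucleus as a complex that represses this activation. Casein kinases 1δ and 1ε phosphorylate PER proteins, and phosphorylated PER is recognised by β-TrCP, which directs it to the proteasome, so that the kinases and the ligase set the pace of the loop. In liver, the cycle times the expression of many metabolic genes, and PAR-bZIP factors such as DBP drive a further set of genes through D-boxes. RNA levels do not show the phosphorylation or the stability of these proteins.

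The sequences before the annotated starts of Cry1, Cry2 and Per3 are shown, and the windows of Per1 and Csnk1e are not. Cry1 differed in direction from Cry2 and Per3 among the libraries, as did Csnk1e from Csnk1d. RefSeq promoter windows were found for 5 of the 8 genes, namely Per1, Per3, Cry1, Cry2 and Csnk1e. Per2, Csnk1d and Btrc are named without a window. The 250 bases before each start were placed on the mouse assembly mm9 by exact match. They lay at chr10:84647800-84648049 for Cry1, chr2:92274227-92274476 for Cry2 and chr4:150418775-150419024 for Per3, all on the minus strand, outside the gene and without overlap with an annotated exon. Capitals mark matches, on either strand, to the E-box (CACGTG), the E-prime box (CACGTT), the core of the ROR element (AGGTCA), the cyclic AMP response element (TGACGTCA) or the D-box (TTATGTAA).
Cry1: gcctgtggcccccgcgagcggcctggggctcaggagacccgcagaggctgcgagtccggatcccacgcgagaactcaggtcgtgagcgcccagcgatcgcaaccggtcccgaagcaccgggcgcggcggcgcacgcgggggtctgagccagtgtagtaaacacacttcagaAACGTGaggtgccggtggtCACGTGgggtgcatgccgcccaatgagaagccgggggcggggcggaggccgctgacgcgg
Cry2: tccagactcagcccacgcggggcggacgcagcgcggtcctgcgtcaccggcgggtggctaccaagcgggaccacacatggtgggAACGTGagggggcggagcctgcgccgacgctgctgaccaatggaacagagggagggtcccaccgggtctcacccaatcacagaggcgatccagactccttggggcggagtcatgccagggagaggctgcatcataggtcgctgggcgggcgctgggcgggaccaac
Per3: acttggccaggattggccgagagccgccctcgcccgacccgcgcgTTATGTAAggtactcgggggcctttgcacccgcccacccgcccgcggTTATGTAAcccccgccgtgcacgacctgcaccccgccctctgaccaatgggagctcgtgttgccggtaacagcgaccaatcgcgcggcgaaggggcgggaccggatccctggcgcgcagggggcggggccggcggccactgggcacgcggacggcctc

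The Cry1 window held 1 E-box, whose first base lay at -60 relative to the start, and 1 E-prime box at -79. An E-box occurred in 6.02% and an E-prime box in 3.85% of the 32851 RefSeq promoter windows of this length. Cry2 held 1 E-prime box at -166 and no E-box. In Per3, 2 D-boxes began at -205 and -158, and 0.819% of all windows contained a D-box. For the upstream of the RefSeq starts of Per1, which lies 3732 bases inside the annotated gene and whose window overlaps an exon, an E-box began at -166 and a ROR element core, present in 14.0% of windows, at -137. The second window of Per1 and the 4 windows of Csnk1e, whose starts lie 1776 to 2101 bases inside that gene, contained none of these motifs, and no cyclic AMP response element, a motif of 1.55% of windows, was found in the windows of the 5 genes. A match describes letters in the window and not binding in these livers.

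**Figure D1:**
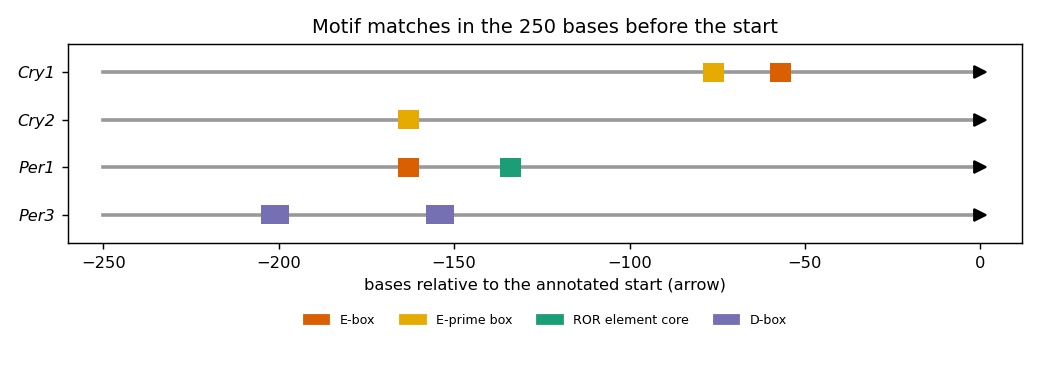
Motif matches in the 250 bases before the RefSeq start of Cry1, Cry2, Per1 (upstream start) and Per3, with the distance to the start in bases on the horizontal axis and motifs as coloured boxes drawn to scale. Per3 had 2 D-boxes, whereas Cry1 and Per1 each had 1 E-box.

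The authors deposited FPKM, a measure of fragments normalised to transcript length and to mapped fragments, so that levels can be compared between genes per length. An estimate of depth from the step size of low values gave 18768760 to 19260787 reads per library, a ratio of 1.03 between the deepest and the shallowest. The label of liver was checked against 16 hepatocyte markers, of which 12 were listed, and 6 of these had a mean FPKM under 1. Albumin (Alb) ran from 620.17 to 1321.55 FPKM and Hnf4a from 47.23 to 54.53, whereas Ttr, Cps1 and Cyp2e1, which define hepatocytes, did not exceed 0.10 FPKM in any library, so that part of the defining hepatocyte transcripts was nearly absent. The row with the highest values of the table was Sprr1a, a cornified envelope gene, at 15810.18 to 26115.83 FPKM. Of the 8 simple epithelium markers, Krt18 (1170.68 to 1358.59 FPKM), Krt8 (403.01 to 491.46) and Spp1 (301.97 to 574.44) made up most of a sum of 2069 to 2389 FPKM. Spp1 and Epcam were highest in CLA, whereas Krt18, Krt8, Krt7, Krt19 and Sox9 were lower in CLA than in Vehicle. In each of the lists for fibroblasts (6 of 7 listed), macrophages (4 of 5), stratified epithelium (4 of 4) and endothelium (4 of 4), 1 gene made up nearly all of the sum and the others stayed below 1 FPKM. These genes were Dcn at 1147.76 to 1506.01 FPKM, Cd68 at 23.43 to 35.64, Krt5 at 2.79 to 4.29 and Pecam1 at 0.50 to 0.93, each highest in CLA. The summed level of the listed hepatocyte markers was 1022 FPKM in Vehicle, 1891 with CLA, 1545 with GW6471 and 951.1 with CLA+GW6471. Alb, Trf and Fgb carried most of this sum, and Hnf4a and Tat were lower in CLA than in Vehicle. Pdk4, a target that PPARα activates, was at 1.17 FPKM in Vehicle and 1.87 in CLA but at 17.99 and 15.56 in the libraries labelled GW6471 and CLA+GW6471, thus higher in both libraries labelled with the antagonist. Cpt1a, another such target, was at 11.34, 15.98, 46.04 and 43.13 FPKM in Vehicle, CLA, GW6471 and CLA+GW6471, and Ppara itself was at 0.15, 0.11, 0.06 and 0.07 FPKM. Conditions are named throughout as labelled.

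Per length, the kinases were the most abundant of the 8 transcripts and Per2 and Per3 the least. Csnk1e ranged from 83.15 to 106.58 FPKM over the 4 libraries and Csnk1d from 50.35 to 56.52, so their ranges did not overlap. Below them, Per1 (9.91 to 15.14 FPKM) and Cry1 (4.63 to 13.05 FPKM) overlapped, and so did Cry1, Cry2 (4.77 to 6.34) and Btrc (4.21 to 6.11). Per2 ran from 0.68 to 1.11 FPKM and overlapped with Per3, at 0.23 to 0.71 FPKM. These ranges span different treatments and are no replicate error. The median of the mean FPKM over all listed genes was 5.97. With a mean of at least 0.5 FPKM as the limit for counts over genes, 10914 genes passed, among them 7 of the 8, and Per3 did not pass with a mean of 0.44.

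**Figure D2:**
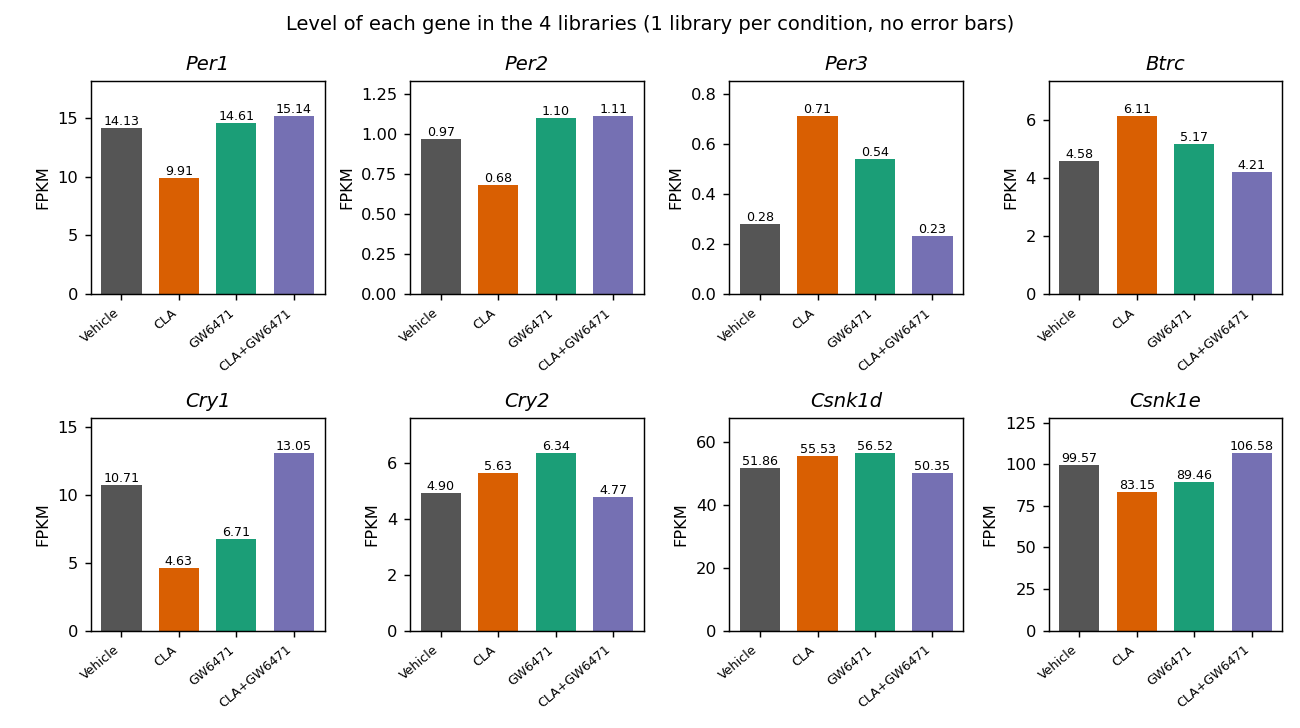
FPKM of the 8 genes (vertical axes from 0, a separate scale per gene) in the 4 libraries, 1 bar per library and no error bars because each condition has 1 library. Cry1 was lowest in CLA (4.63) and GW6471 (6.71), Per3 was highest in the same libraries (0.71 and 0.54), and Per1 and Per2 were lowest in CLA.

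Ratios between libraries were taken after adding 0.1 to each FPKM, on the log2 scale, which makes differences of weakly expressed genes look smaller, and a gene was counted as different from 1.5-fold on this scale. The 95% intervals are exact Clopper-Pearson intervals of the ratio without the added 0.1, from approximate read numbers. They cover counting error only. In bulk tissue, fewer cells of a type and less RNA per cell cannot be told apart.

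The effect of the antagonist on the control diet was addressed by GW6471 against Vehicle. Here, Cry1 was lower and Per3 higher by more than 1.5-fold, and the other 6 genes differed by less. With 1 instead of 0.1 added to each FPKM, the log2 ratio of Per3 was 0.267 and no longer past 1.5-fold. Among the 7 genes that passed the limit, 1 was at least 1.5-fold lower, against 2.62% of all genes, and 0 were at least 1.5-fold higher, against 3.77% of all genes. The median log2 ratio of these 7 genes was 0.12, beside -0.0040 over all genes. The counting interval lay above 0 for 4 of the 8 genes and below 0 for 2, against 26.8% and 26.6% of the genes of known length.

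The effect of the antagonist on the CLA diet was given by CLA+GW6471 against CLA. In this comparison, 3 of the 7 genes were at least 1.5-fold higher, namely Cry1, Per2 and Per1, against 7.35% of all genes, and 0 were lower by this fold, against 9.88% of all genes. The ratios of Per1 and Per2 lay near the limit, and Cry1 alone passed it when 1 instead of 0.1 was added to each FPKM. The median log2 ratio of the 7 genes was 0.36, beside 0.0065 over all genes, and 0.11 when Per3 was included. Per3, outside the count, was lower by more than 1.5-fold, but not with 1 added to each FPKM (-0.475). Here the counting interval lay above 0 for 4 of the 8 genes and below 0 for 4, against 33.9% and 33.3% of the genes of known length.

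The period genes followed more than 1 pattern across the libraries. Per1 (Entrez 18626; mm9 chr11:68908719-68923462, plus strand), the PER gene that light and hormones induce rapidly, was at 14.13 FPKM in Vehicle, 9.91 with CLA, 14.61 with GW6471 and 15.14 with CLA+GW6471. The CLA library was thus the low one and the other 3 lay close together. On the CLA diet, the log2 ratio for the antagonist was 0.61, with a 95% counting interval of 0.49 to 0.74. On the control diet it was 0.048 (-0.065 to 0.16), and no difference was detectable at this depth.

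Per2 (Entrez 18627; mm9 chr1:93312561-93355907, minus strand), which encodes the PER protein best known as a scaffold of the repressor complex, was at 0.97 FPKM in Vehicle, 0.68 with CLA, 1.10 with GW6471 and 1.11 with CLA+GW6471. These levels correspond to about 106, 75, 123 and 125 reads. Its 4 libraries stood in the same order as those of Per1. The log2 ratio for the antagonist was 0.63 (0.28 to 1.13) on the CLA diet and 0.16 (-0.20 to 0.58) on the control diet. The ratio of Per1 to Per2 within a library was 14.6 in Vehicle, 14.6 with CLA, 13.3 with GW6471 and 13.6 with CLA+GW6471.

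Per3 (Entrez 18628; mm9 chr4:150377761-150418774, minus strand), a PER paralog regarded as less needed for the core rhythm, was at 0.28 FPKM in Vehicle, 0.71 with CLA, 0.54 with GW6471 and 0.23 with CLA+GW6471, or about 32, 80, 62 and 27 reads. Vehicle and CLA+GW6471 were low and the libraries with a single treatment high, an order unlike that of Per1 and Per2. The antagonist gave a log2 ratio of 0.75 (0.29 to 1.59) on the control diet and -1.30 (-2.29 to -0.96) on the CLA diet. The share of Per3 in the summed FPKM of the period genes stayed small, since Per1 made up 91.9% of this sum in Vehicle, 87.7% with CLA, 89.9% with GW6471 and 91.9% with CLA+GW6471. Dbp, the gene of a D-box activator, was at 0.77 FPKM in Vehicle, 3.18 with CLA, 1.87 with GW6471 and 0.82 with CLA+GW6471, high in the same libraries as Per3. Other genes of D-box factors varied less, with the activator Tef at 7.66, 9.01, 8.20 and 7.74 FPKM and the repressor Nfil3 at 11.76, 11.30, 13.90 and 12.61 FPKM in the same order of libraries, and Hlf did not exceed 0.04 FPKM. For 30.1% of all genes, CLA and GW6471 both lay above Vehicle and CLA+GW6471, and a link of Dbp to Per3 was not tested. The summed hepatocyte markers, mostly Alb, stood in the order of Per3 as well, and their part in the result was not tested.

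Of the cryptochromes, Cry1 (Entrez 12952; mm9 chr10:84594447-84647799, minus strand), the stronger transcriptional repressor of the pair, differed most. It was at 10.71 FPKM in Vehicle, 4.63 with CLA, 6.71 with GW6471 and 13.05 with CLA+GW6471. Either treatment alone thus stood below Vehicle, and the combination above it. In GW6471 against Vehicle the log2 ratio was -0.67 (95% counting interval -0.86 to -0.49), the 182nd lowest of 10914 genes. In CLA+GW6471 against CLA it was 1.48 (1.29 to 1.70), the 32nd highest. Against GW6471 alone, the combination had a log2 ratio of 0.95 (0.78 to 1.14), the 72nd highest, and against Vehicle one of 0.28 (0.13 to 0.44). A difference between the highest and lowest library at least as large as that of Cry1, 1.48 on the log2 scale, was found for 1.48% of the genes. The summed hepatocyte markers, of which Alb was the largest part, were highest where Cry1 was lowest, at 1891 FPKM in CLA and 1545 in GW6471, whereas Hnf4a was lower in both of these libraries than in Vehicle, and their part in the result was not tested.

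Cry2 (Entrez 12953; mm9 chr2:92243803-92274200, minus strand), which encodes the other cryptochrome repressor, varied less and in the other direction. It was at 4.90 FPKM in Vehicle, 5.63 with CLA, 6.34 with GW6471 and 4.77 with CLA+GW6471. Both single treatments were above Vehicle and the combination, but CLA and Vehicle differed by less than counting error (log2 ratio 0.20, -0.0049 to 0.41), as did Vehicle and the combination (-0.038, -0.25 to 0.17). The log2 ratio for the antagonist was 0.36 (0.17 to 0.57) on the control diet and -0.23 (-0.45 to -0.036) on the CLA diet. Exons of an opposite-strand gene, D930015M05Rik, share 3.43% of the exonic sequence of Cry2, and use of strand in the counting is not stated. The balance of the cryptochromes differed between libraries, with 2.19 times as much Cry1 as Cry2 in Vehicle, 0.82 times with CLA, 1.06 times with GW6471 and 2.74 times with CLA+GW6471. As these are ratios within a library, they do not depend on scaling between libraries. The sum of both cryptochromes was 15.61, 10.26, 13.05 and 17.82 FPKM in Vehicle, CLA, GW6471 and CLA+GW6471.

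The kinase genes differed by less than 1.5-fold in all 5 comparisons made. Csnk1e (Entrez 27373; mm9 chr15:79248282-79274349, minus strand), for the PER kinase 1ε, was at 99.57 FPKM in Vehicle, 83.15 with CLA, 89.46 with GW6471 and 106.58 with CLA+GW6471. This is the order of Cry1 on a smaller scale, with log2 ratios for the antagonist of -0.15 (-0.21 to -0.10) on the control diet and 0.36 (0.31 to 0.41) on the CLA diet. Csnk1d (Entrez 104318; mm9 chr11:120819779-120852644, minus strand), for kinase 1δ, was at 51.86 FPKM in Vehicle, 55.53 with CLA, 56.52 with GW6471 and 50.35 with CLA+GW6471. Its log2 ratio for the antagonist was 0.12 (0.059 to 0.19) on the control diet and -0.14 (-0.21 to -0.075) on the CLA diet. The ratio of Csnk1e to Csnk1d was 1.92 in Vehicle, 1.50 with CLA, 1.58 with GW6471 and 2.12 with CLA+GW6471. Within the coding transcripts of these paralogs no stretch of 50 bases was identical. The exons of Csnk1d overlap those of Slc16a3, on the opposite strand, over 17.8% of their length, but Slc16a3 was listed at no more than 0.14 FPKM. For Csnk1e the overlap with an opposite-strand gene, Gm16059, was 4.72%.

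Btrc (Entrez 12234; mm9 chr19:45438224-45607831, plus strand), the substrate receptor that binds phosphorylated PER, was at 4.58 FPKM in Vehicle, 6.11 with CLA, 5.17 with GW6471 and 4.21 with CLA+GW6471. From high to low, the libraries stood in the order found for Per3, with 1.45-fold between the highest and the lowest. The antagonist gave a log2 ratio of 0.17 (0.0051 to 0.34) on the control diet and -0.53 (-0.70 to -0.37) on the CLA diet. The level of Fbxw11, the paralog that encodes the second β-TrCP, was 48.62, 48.11, 50.01 and 46.24 FPKM in the same order of libraries, above Btrc in each. No stretch of 50 bases was shared between their coding transcripts.

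**Figure D3:**
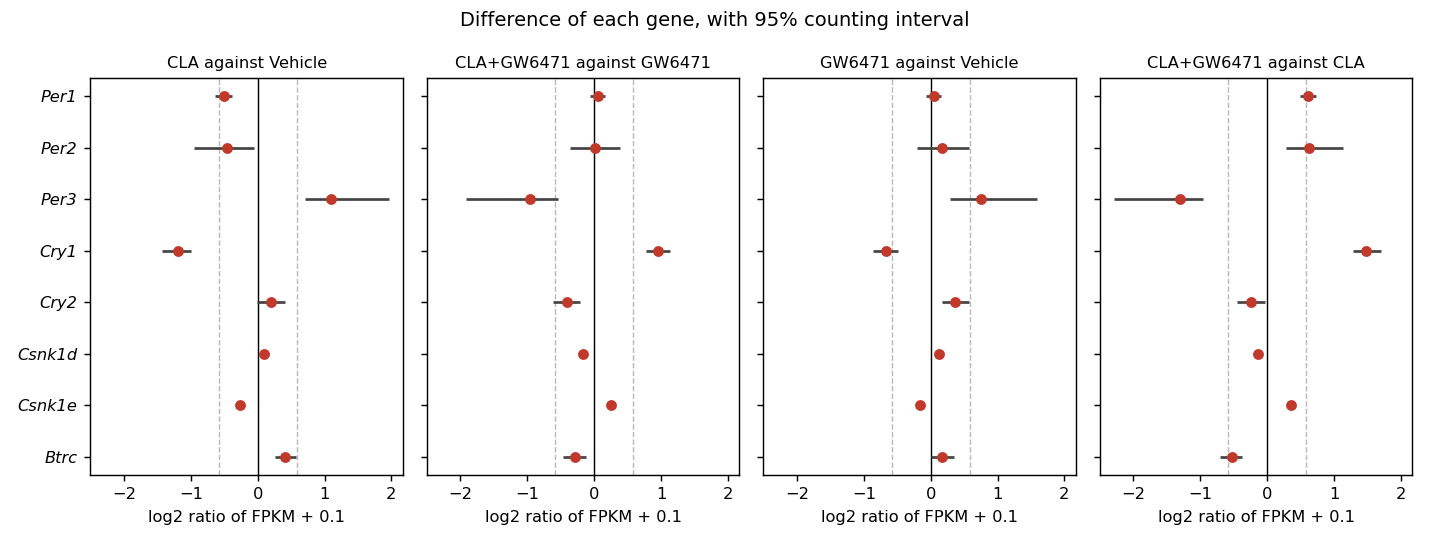
Log2 ratios of FPKM + 0.1 (horizontal axes) for the 8 genes in 4 comparisons, with points for the ratios, bars for the 95% counting intervals and dashed lines at 1.5-fold. Cry1 lay at -1.19 for CLA and -0.67 for GW6471 given alone, and at 0.95 for CLA and 1.48 for GW6471 given on top of the other, and Per3 lay on the opposite side each time.

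The question whether the antagonist altered the response to CLA was addressed by setting CLA against Vehicle beside CLA+GW6471 against GW6471, which share no library. As deposited, all 8 genes had ratios of opposite sign in the 2 comparisons, compared to 72.7% of all genes, but only 6 did so once equal FPKM sums were imposed on the libraries, compared to 71.3% of all genes, since the ratios of Per1 and Per2 with GW6471 then went to -0.014 and -0.048. Cry1 had a log2 ratio of -1.19 (-1.43 to -1.0) without GW6471 and 0.95 with it, a difference of 2.14, and 1.28% of the genes had a difference of at least this size. For Per3 the ratios were 1.09 (0.71 to 1.96) and -0.96 (-1.92 to -0.54), a difference of -2.05, and with 1 added to each FPKM they were 0.418 and -0.324, neither past 1.5-fold. Per1 changed from -0.51 (-0.64 to -0.39) to 0.051 (-0.059 to 0.16) and Per2 from -0.46 (-0.95 to -0.060) to 0.012 (-0.36 to 0.38), so that both lay near 0 with the antagonist rather than beyond it. Btrc went from 0.41 to -0.29, Cry2 from 0.20, which was within counting error, to -0.40, Csnk1e from -0.26 to 0.25 and Csnk1d from 0.098 to -0.17. Of the 7 genes that passed the limit, 1 was lower and 0 higher by 1.5-fold in CLA against Vehicle, against 5.4% and 7.93% of all genes, and the counting interval lay above 0 for 3 of the 8 and below 0 for 4, against 31.4% and 32.5%. In CLA+GW6471 against GW6471, 1 was higher and 0 lower, against 3.37% and 4.38% of all genes, and the interval lay above 0 for 2 of the 8 and below 0 for 4, against 28.1% and 29.4%.

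**Figure D4:**
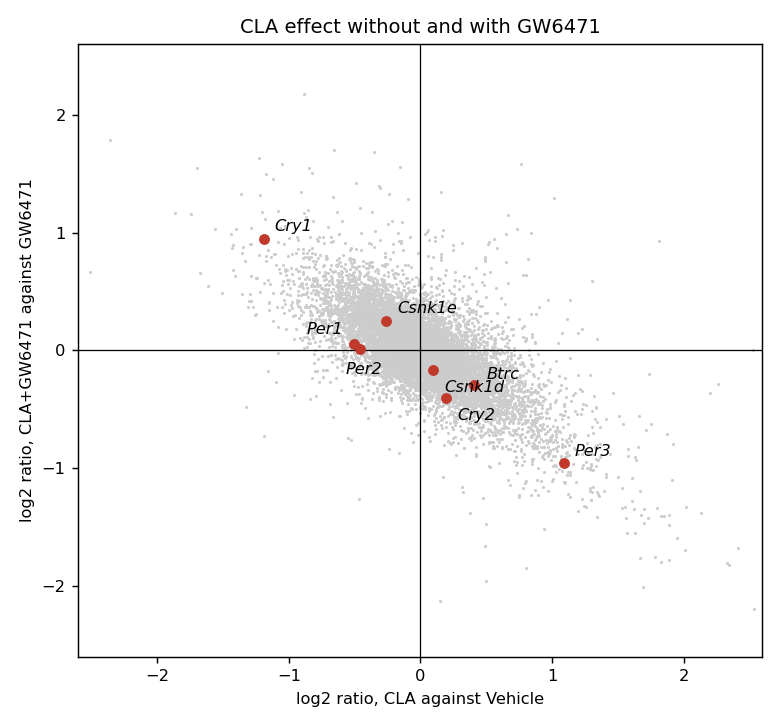
Log2 ratio of CLA to Vehicle (horizontal axis) against that of CLA+GW6471 to GW6471 (vertical axis) for 10910 genes as grey points, with the 8 genes in red; 4 genes lie beyond the axes. Cry1 (-1.19, 0.95) and Per3 (1.09, -0.96) lie in opposite quadrants, upper left and lower right, and Per1 and Per2 lie next to the horizontal zero line.

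Set against each other, the effect of GW6471 had opposite signs on the control and CLA diets for 6 of the 8 genes, compared to 70.5% of all genes, and the exceptions were Per1 and Per2. The libraries CLA and GW6471 both lay above Vehicle and CLA+GW6471 for Per3, Cry2, Csnk1d and Btrc, and 30.1% of all genes showed this order. Both lay below for Cry1 and Csnk1e, as for 31.3% of all genes. Directly compared, CLA+GW6471 and Vehicle differed by at least 1.5-fold for none of the 8 genes, where 0.944% of all genes were higher and 0.999% lower by this fold. Their log2 ratios ran from -0.20 for Per3 to 0.28 for Cry1, and the counting interval excluded 0 only for Cry1 and Csnk1e, both higher in CLA+GW6471. Of the genes of known length, 14.7% were higher and 16.8% lower beyond their interval.

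Genes whose profile over the 4 libraries was nearest to that of Cry1 and Per3 were sought among those with a mean of at least 5 FPKM, by the Euclidean distance between centred log2 values. Nearest to Cry1 among 8181 genes were Cnppd1 (distance 0.084), 1110059M19Rik (0.12) and Il23a (0.18), a cytokine subunit gene. Il23a was at 30.07 FPKM in Vehicle, 11.32 with CLA, 16.15 with GW6471 and 33.09 with CLA+GW6471. Nearest to Per3 were Hmgcs1 (0.056) and Idi1 (0.058), both enzymes of cholesterol synthesis, and Fkbp14 (0.058), a prolyl isomerase of the endoplasmic reticulum. Hmgcs1 was at 26.76 FPKM in Vehicle, 56.68 with CLA, 46.88 with GW6471 and 23.00 with CLA+GW6471. With 4 libraries, such nearness is a description of these values. Per3 had a mean of only 0.44 FPKM, and its counting interval in CLA against Vehicle, 0.71 to 1.96, was far wider than these distances. With 1 or 0.01 added to each FPKM, that log2 ratio was 0.418 or 1.31, and the nearest genes were not sought with these.

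The other genes that act on the period and cryptochrome proteins were described from lists by role. The ligase partners of β-TrCP (Fbxw11, Skp1a, Cul1 and Rbx1) differed by less than 1.5-fold in every comparison, with a median log2 ratio for the antagonist of 0.017 on the control diet and -0.12 on the CLA diet. Of the 6 ligases and deubiquitinases of cryptochromes, 0 differed by 1.5-fold with the antagonist on the control diet and 2 were lower with it on the CLA diet, against 9.88% of all genes, where the median log2 ratio was -0.18. One was Fbxl21, an F-box protein that binds cryptochromes, at 0.97, 2.31, 1.47 and 1.0 FPKM in Vehicle, CLA, GW6471 and CLA+GW6471. With 1 added to each FPKM, the log2 ratio of Fbxl21 on the CLA diet went from -1.13 to -0.727. The other was Ddb1, an adaptor of CUL4 ligases, at 223.55, 290.09, 253.56 and 188.02 FPKM. In CLA against Vehicle, Fbxl21 was the member of this list past 1.5-fold, where 7.93% of all genes were higher.

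Among 17 other kinases and phosphatases of PER and CRY, 0 differed by 1.5-fold with the antagonist on the control diet and 1 was higher with it on the CLA diet, against 7.35% of all genes. This was Prkaa2, a catalytic subunit of the AMP-activated kinase, at 1.87, 1.28, 1.72 and 2.02 FPKM in Vehicle, CLA, GW6471 and CLA+GW6471. With 1 added to each FPKM its log2 ratio was 0.406, and 0 genes of the list passed 1.5-fold. The median log2 ratio of the list was 0.0030 on the control diet and 0.15 on the CLA diet. Csnk1a1, the casein kinase 1α gene, was at 105.76, 111.67, 119.87 and 100.46 FPKM in the same order, a range that overlapped with that of Csnk1e. For 12 partners of the repressor complex, 0 differed by 1.5-fold with the antagonist on the control diet and 2 were higher with it on the CLA diet, against 7.35% of all genes, with medians of -0.11 and 0.074. Ciart, a repressor of CLOCK and BMAL1, was at 23.45, 13.52, 18.03 and 20.33 FPKM in Vehicle, CLA, GW6471 and CLA+GW6471. Cipc, which binds CLOCK, was at 6.97, 5.06, 5.75 and 7.64 FPKM. Both were lowest in CLA, as were 33.8% of all genes. Both lay at the limit of 1.5-fold on the CLA diet, which neither passed with 1 added to each FPKM (log2 ratios of 0.555 and 0.512).

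Of the 13 activators and other loop genes, 10 passed the limit of 0.5 FPKM, and 2 of them, Dbp and Bhlhe40, were at least 1.5-fold higher and 0 lower with the antagonist on the control diet, against 3.77% and 2.62% of all genes. On the CLA diet, the genes past 1.5-fold included Clock and Arntl, which were higher, and Dbp and Bhlhe40, which were lower. Clock was at 5.94, 3.54, 5.99 and 6.80 FPKM in Vehicle, CLA, GW6471 and CLA+GW6471, and Arntl, which encodes BMAL1, at 19.83, 11.59, 17.12 and 21.01 FPKM. Bhlhe40, a repressor that competes for E-boxes, was at 57.05, 103.46, 87.07 and 54.11 FPKM. Clock and Arntl, like Cry1, were thus lowest in CLA, as were 33.8% of all genes, while Bhlhe40 and Dbp were highest there. With 1 added to each FPKM, the log2 ratio of Dbp went from 1.18 to 0.697 on the control diet and from -1.83 to -1.20 on the CLA diet. The median log2 ratio of the 10 genes was 0.26 on the control diet and -0.094 on the CLA diet. In the list of 13 CREB and glucocorticoid receptor genes, a route by which Per1 is induced, 0 differed by 1.5-fold with the antagonist on the control diet and 2 were higher with it on the CLA diet, against 7.35% of all genes, with medians of 0.074 and 0.055. Dusp1, an immediate early phosphatase gene, was at 70.42, 39.57, 72.58 and 90.62 FPKM in Vehicle, CLA, GW6471 and CLA+GW6471, and Crem at 5.65, 3.46, 5.07 and 6.65 FPKM. Like Per1, both were lowest in CLA, as was the case for 33.8% of all genes.

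**Figure D5:**
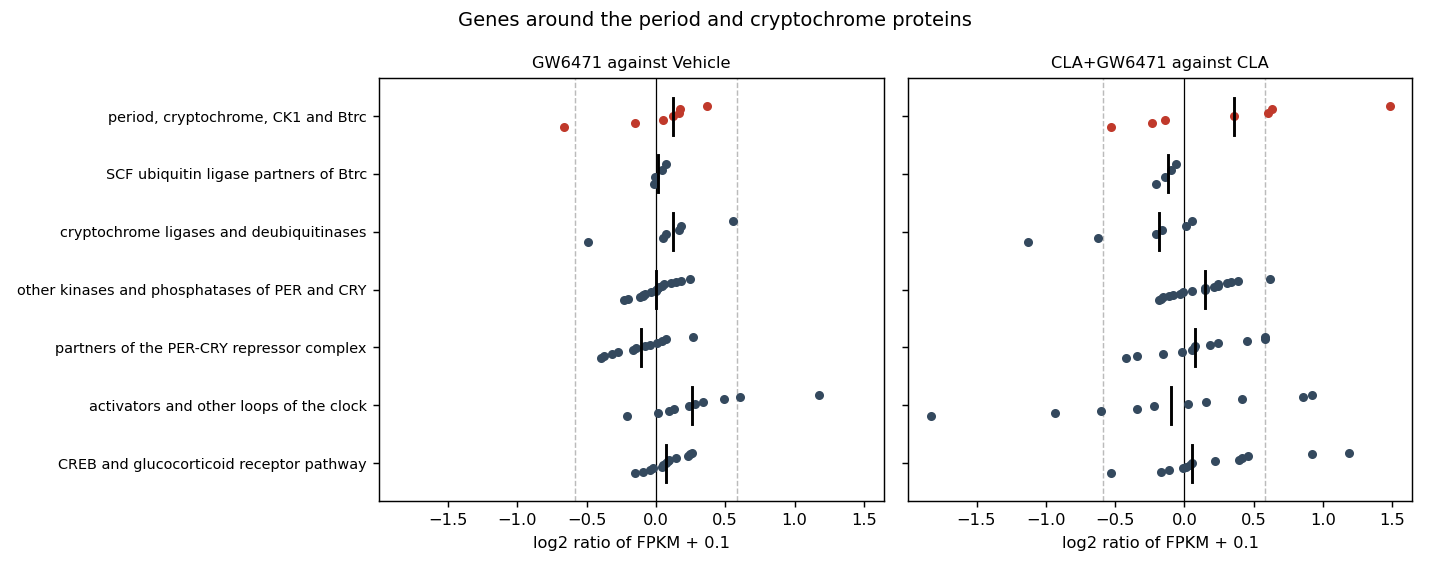
Log2 ratios of FPKM + 0.1 (horizontal axes) of the genes with a mean of at least 0.5 FPKM in each list, for GW6471 against Vehicle and CLA+GW6471 against CLA, with 1 point per gene, vertical bars at the medians and dashed lines at 1.5-fold. The 7 period, cryptochrome, kinase and Btrc genes (red) had medians of 0.12 and 0.36, and Cry1 lay farthest from 0 among them in both panels.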

How the data were processed

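Liver RNA was sequenced in 4 libraries, 1 per condition, and samples were grouped by their labels. According to the methods and the submitters' processing notes, the authors used BWA and Bowtie for mapping to mm9 and Cufflinks for quantification, and deposited FPKM with 2 decimals. Not given in the sources used here were versions, annotation and use of strand. As the table names no unit, FPKM was taken from the study's supplement. The values served as deposited, with 0.1 added before log2, a limit of 0.5 on the mean FPKM and a ratio of 1.5-fold for counts. No test was made with 1 library per condition.

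Depth was estimated from 499 genes under 1000 nt with a single transcript in GENCODE vM1, using FPKM times length in kb between 0.02 and 0.5. Approximate reads used the longest coding transcript. List genes were matched by symbol or, for renamed genes, by Entrez number through the GRCm38.p6 RefSeq table. Promoter windows came from RefSeq (GRCm38.p6), were placed on mm9 by exact match, and all coordinates are of mm9. Calculations used scipy 1.17.1, pandas 2.3.3 and numpy 2.4.6 in Python 3.11.15, with figures from matplotlib 3.10.9, and were tested on simulated data. All 8 genes were named, and for each list of clock-related genes at most 4 by the largest absolute log2 ratio in any comparison. Csnk1a1, Pdk4, Cpt1a, Ppara, Sprr1a, Slc16a3, Tef, Hlf, Nfil3 and the cell type markers were named after their values were seen. Some list genes are not reported here. For Cry1 and Per3, which ranged over at least 1 on the log2 scale, the 3 genes of nearest profile were named. The genes and the lists were chosen with earlier results of these data known. Other pseudocounts, filters, scalings, folds and transcript lengths were tried.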

Additional observations from a re-analysis of the deposited data

Results flagged for a closer look

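The response of Cry1 and Per3 to each treatment was opposite in sign and past 1.5-fold depending on the presence of the other, with 1 library per condition, and these differences were not tested. Among all genes, regardless of fold, the sign was opposite for 72.7% with CLA and for 70.5% with GW6471. For Cry1, the log2 ratio of CLA to the matching library without CLA was -1.19 without GW6471 and 0.949 with it. The log2 ratio for GW6471 was -0.667 on the control diet and 1.48 on the CLA diet. Per3 showed CLA ratios of 1.09 without and -0.956 with GW6471, and GW6471 ratios of 0.752 on the control diet and -1.30 on the CLA diet. Per3 rests on about 27 to 80 reads per library, and with a pseudocount of 1 its ratios kept their signs but were 0.418, -0.324, 0.267 and -0.475 in the same order, none past 1.5-fold. The CLA ratios share no library with each other, and neither do the GW6471 ratios, but each CLA ratio shares libraries with the GW6471 ratios.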

How the results depend on the processing

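No paired analysis was possible because each condition has 1 library. Of 120 values of counts and medians under an alternative, 108 moved by no more than 1.5-fold (counts) or by less than the typical counting error (medians). Among these, the median in CLA+GW6471 against GW6471 changed sign, from 0.012 to -0.077 without a filter, -0.058 with a mean of at least 1 or 5 FPKM and -0.048 with equal FPKM sums. In CLA+GW6471 against CLA, the number of genes at least 1.5-fold higher went from 3 to 1 with a pseudocount of 1, to 1 with a limit of 2-fold and to 2 with a mean of at least 1 or 5 FPKM. With Per3 included by using no filter on the mean FPKM, 1 gene instead of 0 was higher for CLA and 1 instead of 0 for GW6471 given alone, and 1 instead of 0 was lower for each treatment given on top of the other. The median in CLA+GW6471 against CLA was 0.108 without a filter, 0.108 with a mean of at least 1 FPKM and 0.108 with at least 5 FPKM, which changes which genes enter. At 2-fold, 0 genes instead of 1 were lower in GW6471 against Vehicle, and 0 instead of 1 higher in CLA+GW6471 against GW6471. Counted with the shortest coding transcript, 1 gene instead of 2 lay beyond its interval in CLA+GW6471 against Vehicle. The number was 6 instead of 8 in CLA+GW6471 against CLA, 6 instead of 7 in CLA against Vehicle and 5 instead of 6 in GW6471 against Vehicle. It stayed at 6 in CLA+GW6471 against GW6471. Of 160 ratios of single genes, 4 moved by more than their counting error and 0 of those past 1.5-fold changed sign. With equal FPKM sums, CLA+GW6471 against GW6471 gave -0.23 for Csnk1d, 0.19 for Csnk1e, -0.014 for Per1 and -0.048 for Per2. With a pseudocount of 1, Per3 was past 1.5-fold in none of the comparisons, with log2 ratios of 0.418 for CLA and 0.267 for GW6471 given alone, and -0.324 for CLA and -0.475 for GW6471 given on top of the other. In an alternative added after the data were seen, a pseudocount of 1 took the number of genes higher in CLA+GW6471 against CLA from 1 to 0 among the other kinases and phosphatases and from 2 to 0 among the partners of the repressor complex. Scaling moved the median of all genes by less than 0.1. Depth limits Per2 (about 75 to 125 reads per library) and Per3 (27 to 80) most.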
